A study of Mus musculus with 6 samples.

Results

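Basophils, mast cells and eosinophils are rare granulocytes, and 31 genes that mark them were followed in cultures of mouse bone marrow grown on a soft or a stiff substrate. The genes were chosen by name for what these cells are known to make, 22 for basophils and mast cells and 9 for eosinophils, out of 24062 gene symbols in each count table. The choice was made with earlier results of these data known, so counts beside the background describe the list and are no independent support. All 31 were found in the tables. Marrow from the femur and tibia of C57BL/6J mice was grown with GM-CSF at 20 ng/ml, added again on days 3, 6 and 10, at 2 kPa (low tension, 3 samples) or at 50 kPa (high tension, 3 samples), and polyA RNA was sequenced. GM-CSF was given to both groups, and the substrate is the one difference that the labels name. The sample titles call the cells dendritic cells, the labels name no sort, and they do not say that replicates came from separate animals or cultures. Each value is therefore an average over all cells of a sample. A p-value here sets the difference between the groups against the spread of samples within them, part or all of which could be technical.

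Basophils and mast cells carry the high-affinity IgE receptor. When allergen cross-links IgE on it, they release stored histamine and serine proteases and secrete interleukins 4 and 13. Basophils mature in the marrow, while mast cells leave it as precursors and mature in tissues, so that connective tissue mast cell proteases are usually late products. Eosinophils store toxic cationic proteins, a peroxidase and ribonucleases in their granules and depend on the interleukin 5 receptor. GM-CSF turns marrow precursors mainly into macrophages and dendritic cells, and its receptor shares a signalling chain with the receptors for interleukins 3 and 5, which support basophils and eosinophils.

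The libraries held 33.8 M to 36.3 M counts, so that 1 count equalled 0.0240 to 0.0311 CPM (counts divided by the TMM-scaled library size, the level used throughout). All 16 dendritic cell markers on a fixed list were detected, among them Itgax, the gene of CD11c, at 299 to 1109 CPM at 2 kPa and 1412 to 2958 CPM at 50 kPa. The list went both ways, with 9 markers below 0 and 7 above and a median log2 fold change (50 kPa over 2 kPa) of -0.41. DESeq2 called 8 of them lower and 4 higher, beside 9.51% and 8.52% of all genes. By edgeR 2 were called, Cd226 and Adam23, both lower. Some libraries did not sit where their labels put them. Compared by counts over tested genes, high tension replicates 1 and 2 had a chi-square divided by its degrees of freedom of 6.71, above counting noise but far under the 126 to 233 of every other same-group pair. They were used as separate samples, as the labels list them, and values with their counts summed into 1 sample are given below. Low tension replicate 1 was nearer to the libraries at 50 kPa, at 122 to 136, than to its own group, at 156 and 213, and results without it are also given. Low tension replicate 3 was nearer to high tension replicate 3, at 157, than to its own group, at 213 and 233. High tension replicate 3 was nearest to low tension replicate 1. The quasi-likelihood test of edgeR, with Benjamini-Hochberg adjustment over 13155 genes and a threshold of 0.05, called 1.98% of all genes lower and 1.47% higher at 50 kPa. With high tension replicates 1 and 2 summed, or with either left out, it called 0 genes, so every edgeR call below rests on counting them as separate samples.

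Most of the genes stood lower at 50 kPa, and by edgeR none of them passed the adjusted threshold. Of the 22 basophil and mast cell genes 18 had enough counts to be tested, and 17 of these had a negative log2 fold change (50 kPa over 2 kPa) and 1 a positive one. All 9 eosinophil genes were tested, 7 with a negative and 2 with a positive value. The filter asked for about 10 counts in at least 3 libraries. Fcer1a, Il4, Il13, Il5ra and Ccr3 each fell below 10 counts in some 50 kPa library and passed through their 2 kPa levels. Their negative direction is thus partly set by the filter and is no support, though they stay in the counts and medians. The median log2 fold change was -1.87 over the 18 basophil and mast cell genes and -1.42 over the 9 eosinophil genes, beside -0.028 over all genes tested, of which 53.2% were below 0. In a bulk sample fewer cells of a type and less RNA per cell cannot be told apart, and this holds for every gene below.

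The count of calls depended on the test. By edgeR 0 of 27 genes were called, with adjusted p-values from 0.0683 to 0.995. Before adjustment, 18 of the 27 had an edgeR p under 0.05 and were lower (background 14.8%) and 2 were higher (background 13.0%). DESeq2 called 11 basophil and mast cell genes and 4 eosinophil genes lower (background 9.51%) and 1 eosinophil gene, Ear2, higher (background 8.52%). Levels in the groups did not overlap for 16 genes that were lower (background 16.9%) and 2 that were higher (background 17.2%), and 19 were at least 2-fold lower (background 8.07%). Among the 16 are Fcer1a, Il13, Il5ra and Ccr3, which passed the filter through their 2 kPa levels. With high tension replicates 1 and 2 summed, the medians were -1.65 and -1.28 and 13 of 28 genes had an unadjusted p under 0.05 with edgeR, all lower. Without low tension replicate 1 the medians were -2.18 and -1.68. The plot of fold changes orders the 27 genes from Prss34 to Ear2.

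**Figure D1:**
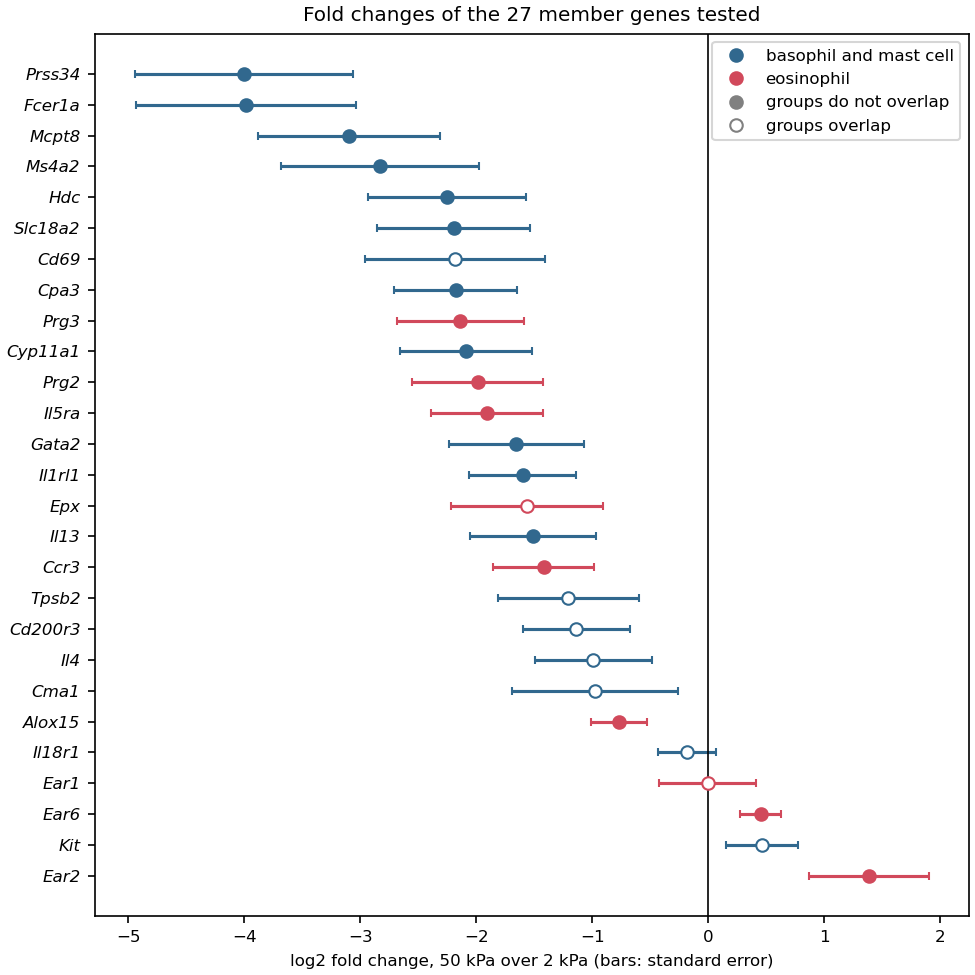
Log2 fold change (50 kPa over 2 kPa, x axis) of the 27 genes tested with edgeR, with standard errors as bars; filled points are genes whose groups did not overlap. Blue basophil and mast cell genes reach -4.002 at Prss34, and the red eosinophil gene Ear2 lies at the other end at 1.39.

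The IgE receptor genes were among the lowest relative to 2 kPa. Fcer1a encodes the chain that binds IgE and lies at chromosome 1, 173221284 to 173227214, minus strand (GRCm38, GENCODE M21). It stood at 2.12, 8.68 and 2.43 CPM in replicates 1, 2 and 3 at 2 kPa and at 0.0622, 0.119 and 0.637 CPM in replicates 1, 2 and 3 at 50 kPa. The lowest of these values rest on 2, 4 and 22 counts. Every 50 kPa library lay below every 2 kPa library, with replicate 2 highest at 2 kPa and replicate 3 highest at 50 kPa. The log2 fold change was -3.98 ± 0.95 (standard error, edgeR adjusted p = 0.0698). With 2 and 4 counts in replicates 1 and 2 at 50 kPa, the size for Fcer1a is uncertain and no fold is given. Ms4a2, which encodes the signal-amplifying beta chain of the receptor (chromosome 19, 11615523 to 11623719, minus strand), went from 7.56, 40.1 and 13.8 CPM to 1.49, 1.25 and 5.87 CPM. These groups did not overlap either, and the log2 fold change was -2.83 ± 0.85 (edgeR adjusted p = 0.105). Fcer1g encodes the gamma chain, which many myeloid cells use with other Fc receptors, and it stood at 0.28 on the same scale (edgeR adjusted p = 0.348). Without high tension replicate 3 Fcer1a was at -5.53 and Ms4a2 at -3.88, and without low tension replicate 2 they were at -3.03 and -1.89.

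The proteases that mark basophils also stood lower at 50 kPa, and the Fcer1a difference is too uncertain in size to rank against theirs. Prss34, which encodes the tryptase mMCP-11 of basophils (chromosome 17, 25298394 to 25300165, plus strand), stood at 31.3, 162 and 42.6 CPM at 2 kPa and 3.05, 1.67 and 9.98 CPM at 50 kPa. Its log2 fold change was -4.002 ± 0.94, or 16.03-fold lower (edgeR adjusted p = 0.0683). Mcpt8, the basophil granule protease used as a lineage marker (chromosome 14, 56082166 to 56085273, minus strand), stood at 48.1, 195 and 80.0 CPM and then at 8.43, 4.72 and 24.6 CPM. This was a difference of -3.10 ± 0.79, or 8.56-fold (edgeR adjusted p = 0.0795). For both genes the highest library at 50 kPa, replicate 3, lay below the lowest at 2 kPa, replicate 1. Without low tension replicate 2, Prss34 and Mcpt8 were at -2.91 and -2.35, and without high tension replicate 3 at -5.04 and -4.02.

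Cpa3, the carboxypeptidase shared by mast cells, basophils and their precursors (chromosome 3, 20215620 to 20242181, minus strand), stood at 62.8, 138 and 128 CPM at 2 kPa. At 50 kPa it stood at 13.8, 15.7 and 42.9 CPM. The groups were apart, with a log2 fold change of -2.18 ± 0.53 (edgeR adjusted p = 0.0735). Without high tension replicate 3 its adjusted p was 0.0412 and its log2 fold change -2.88, the one call among these genes in the 6 edgeR fits that left out a library.

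The mast cell proteases differed less. Tpsb2, the mast cell tryptase mMCP-6 (chromosome 17, 25366305 to 25369098, plus strand), stood at 13.7, 31.4 and 26.5 CPM at 2 kPa and 4.04, 7.31 and 19.6 CPM at 50 kPa. Cma1, the chymase mMCP-5 (chromosome 14, 55941451 to 55944675, minus strand), stood at 12.1, 17.3 and 43.4 CPM and at 4.79, 8.24 and 24.0 CPM. In both genes high tension replicate 3 was above low tension replicate 1, so the groups overlapped. Tpsb2 differed by -1.21 ± 0.61 (edgeR adjusted p = 0.245) and Cma1 by -0.97 ± 0.71 (edgeR adjusted p = 0.399). Cma1 was at -0.25 without low tension replicate 3 and at -1.89 without high tension replicate 3, and Tpsb2 was at -2.06 without the latter. Tpsab1 (mMCP-7) and Mcpt4 (mMCP-4), a tryptase and a chymase of connective tissue mast cells, were barely present. Tpsab1 had 0, 5 and 4 counts at 2 kPa and 1, 0 and 4 at 50 kPa, and Mcpt4 had 0, 2 and 2 and then 0, 0 and 4. A count of 0 allows up to 3 counts, or 0.0720 to 0.0933 CPM depending on the library, and neither gene was tested. The C57BL/6 strain is known to lack functional mMCP-7 as background, and its part in the Tpsab1 counts was not tested.

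The stretch of 250 bases before the start site of these genes was searched on both strands for the 6-letter sequences that GATA factors such as GATA2 are known to bind. Those led by an A were AGATAA and, with another last base, AGATAG. Those led by a T were TGATAA and, likewise, TGATAG. The 4 lower genes shown were picked as examples that hold a match, and Ear2 is shown because it was not lower. They are no sample of the genes, since Mcpt8, Gata2 and Epx were also at lower mean levels and hold 0 matches. The Mcpt8 stretch is not shown because it runs into the annotated gene. Sequences are from RefSeq on GRCm38.p6, written in the direction of transcription, with matches in capitals (a match on the other strand appears as its reverse complement).
Fcer1a promoter, chr1:173227230-173227479, minus strand: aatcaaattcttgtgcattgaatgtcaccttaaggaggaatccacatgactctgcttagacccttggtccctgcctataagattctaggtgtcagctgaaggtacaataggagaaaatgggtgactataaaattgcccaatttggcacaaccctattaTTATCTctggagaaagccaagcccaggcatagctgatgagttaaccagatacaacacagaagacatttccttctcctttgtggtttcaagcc
Ms4a2 promoter, chr19:11623720-11623969, minus strand: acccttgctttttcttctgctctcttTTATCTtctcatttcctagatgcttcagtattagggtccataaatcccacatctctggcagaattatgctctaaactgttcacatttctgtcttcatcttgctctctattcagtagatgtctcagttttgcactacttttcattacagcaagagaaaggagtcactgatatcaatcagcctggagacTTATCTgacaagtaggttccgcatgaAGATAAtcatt
Prss34 promoter, chr17:25298144-25298393, plus strand: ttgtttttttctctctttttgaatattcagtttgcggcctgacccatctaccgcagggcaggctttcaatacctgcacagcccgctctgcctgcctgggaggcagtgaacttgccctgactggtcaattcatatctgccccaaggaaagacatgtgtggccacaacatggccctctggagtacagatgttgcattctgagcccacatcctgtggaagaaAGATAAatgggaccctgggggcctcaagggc
Cpa3 promoter, chr3:20242182-20242431, minus strand: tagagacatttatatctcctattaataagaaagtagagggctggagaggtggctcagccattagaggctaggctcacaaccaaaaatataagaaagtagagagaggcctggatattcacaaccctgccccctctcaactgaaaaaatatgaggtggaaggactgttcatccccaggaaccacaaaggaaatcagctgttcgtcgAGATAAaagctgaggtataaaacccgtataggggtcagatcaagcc
Ear2 promoter, chr14:44102404-44102653, plus strand: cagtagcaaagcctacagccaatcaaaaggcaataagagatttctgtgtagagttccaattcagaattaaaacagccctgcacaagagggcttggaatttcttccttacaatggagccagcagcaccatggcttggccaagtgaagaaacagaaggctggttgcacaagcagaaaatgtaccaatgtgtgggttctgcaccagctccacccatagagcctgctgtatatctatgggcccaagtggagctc

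Fcer1a, Prss34 and Cpa3 each held 1 match, 92, 31 and 46 bases before the start site, and Ms4a2 held 3, at 224, 37 and 11 bases. Ear2 held 0. RefSeq promoters were at hand for 26 of the 31 genes. At least 1 match was found in 15 of 19 basophil and mast cell genes and 3 of 7 eosinophil genes, counting any listed start site, beside 8039 of 27025 genes overall. By promoter, the share was 61.5% of 26 for the former and 42.9% of 7 for the latter, beside 26.5% of all 32851 promoters. The Il1rl1 promoter at its upstream start site held 5 matches, and Ear6, Ear1, Kit and Il18r1 held 0, as Ear2 did. A match is a string of letters and not a measured binding site.

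Genes for histamine handling and steroid synthesis stood lower at 50 kPa by similar factors. Hdc, the enzyme that makes histamine from histidine, went from 42.2, 105 and 114 CPM at 2 kPa to 11.7, 7.05 and 36.02 CPM at 50 kPa (-2.25 ± 0.68, edgeR adjusted p = 0.106). Slc18a2, the transporter that loads histamine and other amines into granules, stood at 6.39, 20.6 and 10.2 CPM and at 1.56, 1.40 and 5.15 CPM (-2.19 ± 0.66, edgeR adjusted p = 0.104). Cyp11a1, the first enzyme of steroid synthesis, which mast cells and basophils also express, stood at 27.9, 93.5 and 42.7 CPM and at 9.55, 7.79 and 21.2 CPM (-2.09 ± 0.57, edgeR adjusted p = 0.0881). In all 3 genes the groups did not overlap and the highest library at 50 kPa was replicate 3. Hdc is also made by neutrophils and their precursors, and its highest library at 2 kPa was replicate 3, while the other two genes peaked in replicate 2. The exons of Slc18a2 overlap a gene on the opposite strand, and whether the counting used strand is unknown here, so reads of the pair may be mixed. Those of Cyp11a1 overlap the gene Gm17322 on the same strand, so its counts may be affected whatever the strand setting.

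Gata2, the transcription factor required for mast cell and basophil development (chromosome 6, 88193891 to 88207032, plus strand), stood at 24.4, 81.0 and 33.4 CPM at 2 kPa and 12.1, 8.03 and 24.0 CPM at 50 kPa. High tension replicate 3 lay just under low tension replicate 1, so the groups were apart by a narrow margin. The log2 fold change was -1.65 ± 0.58 (edgeR adjusted p = 0.135) and -0.97 without low tension replicate 2. The cytokine genes Il4 and Il13 had low levels, at 0.249 to 1.08 and 0.119 to 1.18 CPM over the libraries. Il4, which drives IgE class switching, had 14, 45 and 19 counts at 2 kPa and 8, 9 and 17 at 50 kPa, with overlapping levels (-0.99 ± 0.51, edgeR adjusted p = 0.251). Il13, its close relative, had 17, 49 and 23 counts and then 9, 4 and 14 (-1.51 ± 0.54, edgeR adjusted p = 0.142). Its groups were apart only by 0.440 against 0.405 CPM, or 17 against 14 counts.

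The surface receptors split by gene. Il1rl1 encodes ST2, the interleukin 33 receptor of basophils, mast cells and other type 2 cells. It stood at 13.0, 40.2 and 23.0 CPM at 2 kPa and 6.88, 6.24 and 12.01 CPM at 50 kPa, without overlap (-1.60 ± 0.46, edgeR adjusted p = 0.0967). Cd200r3, an activating receptor of basophils and mast cells, stood at 5.38, 16.9 and 8.47 CPM and at 3.89, 3.61 and 6.51 CPM, with overlap (-1.14 ± 0.46, edgeR adjusted p = 0.175). Cd69, an early activation marker that many leukocytes share, was 69.1, 44.9 and 280 CPM at 2 kPa and 20.5, 18.2 and 47.9 CPM at 50 kPa. Low tension replicate 3 stood far above the rest here, and the log2 fold change of -2.18 ± 0.78 (edgeR adjusted p = 0.14) became -0.98 without that library.

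Kit was the exception among the basophil and mast cell genes. It encodes the stem cell factor receptor, carried by mast cells and by haematopoietic progenitors but not by mature basophils. Its levels were 108, 59.4 and 61.7 CPM at 2 kPa and 125, 120 and 71.7 CPM at 50 kPa. The groups overlapped, and the libraries with the most Mcpt8 in each group were not those with the most Kit. The log2 fold change was 0.47 ± 0.31 (edgeR adjusted p = 0.358). Il18r1, the interleukin 18 receptor chain found on several lymphoid and myeloid cells, was also close to 0, with 18.0, 16.4 and 9.25 CPM and then 12.1, 12.6 and 13.8 CPM (-0.18 ± 0.25, edgeR adjusted p = 0.654). Without low tension replicate 1 its value was 0.0057. Il9r, the receptor for the mast cell growth factor interleukin 9, had 5, 17 and 15 counts at 2 kPa and 3, 8 and 4 at 50 kPa and was not tested. Mrgprb2, the receptor of connective tissue mast cells for basic secretagogues, had 0, 3 and 4 counts and then 0 in every 50 kPa library, which allows up to 0.0868 to 0.0933 CPM.

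**Figure D2:**
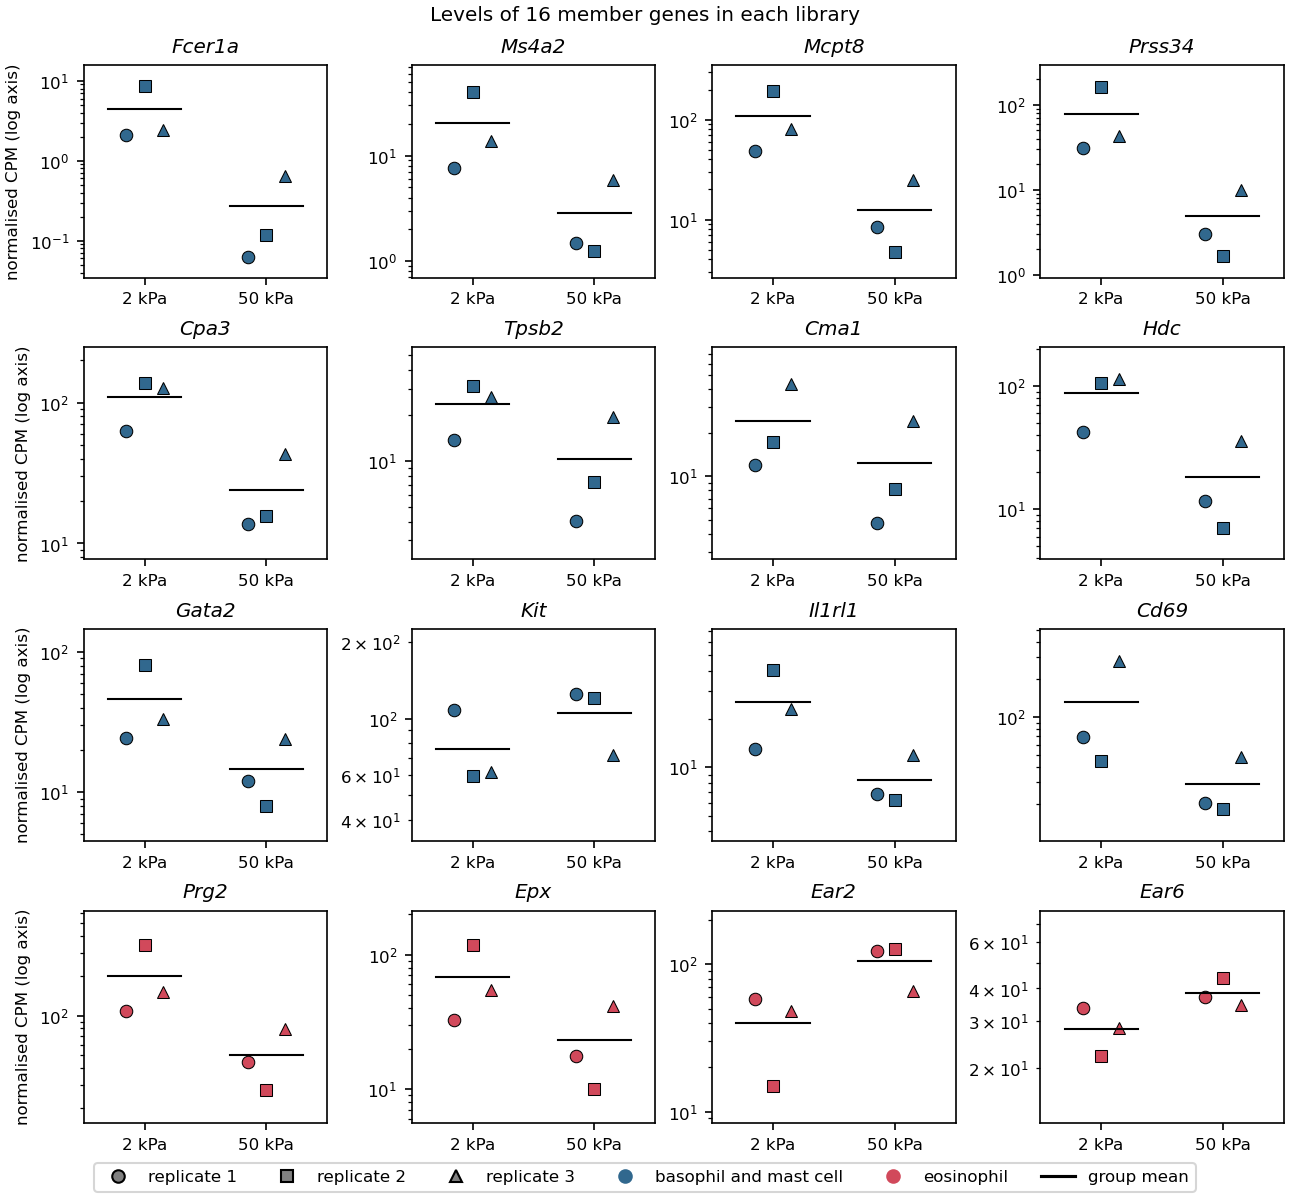
Normalised CPM (log axis, different range in each panel) of 16 of the genes in the 3 libraries at 2 kPa and the 3 at 50 kPa; marker shapes give the replicate and lines the group means. The Fcer1a, Mcpt8, Prss34 and Prg2 points at 50 kPa all lie below those at 2 kPa, while the Ear2 and Ear6 points lie above and those of Kit, Cma1 and Epx overlap.

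Among the eosinophil granule genes, the basic proteins and the peroxidase stood lower and the ribonucleases did not. Prg2, the major basic protein (chromosome 2, 84980461 to 84983632, plus strand), stood at 107, 345 and 151 CPM at 2 kPa and 44.7, 27.5 and 79.9 CPM at 50 kPa. The groups were apart (-1.99 ± 0.56, edgeR adjusted p = 0.0932). Its neighbour and homologue Prg3 (chromosome 2, 84988215 to 84993886, plus strand) stood at 4.27, 12.1 and 4.36 CPM and at 1.46, 0.925 and 2.31 CPM (-2.14 ± 0.55, edgeR adjusted p = 0.0799). Epx, the eosinophil peroxidase (chromosome 11, 87864000 to 87875536, minus strand), stood at 32.5, 117 and 54.9 CPM and at 17.6, 10.0 and 41.6 CPM. High tension replicate 3 exceeded low tension replicate 1 for Epx, so its groups overlapped (-1.56 ± 0.66, edgeR adjusted p = 0.184). Prg2 transcripts are known also from basophils and from immature granulocytes, so the gene is not particular to mature eosinophils.

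Ear2 (chromosome 14, 44102654 to 44103534, plus strand) stood at 57.8, 14.99 and 47.9 CPM at 2 kPa and 123, 128 and 65.3 CPM at 50 kPa. All 50 kPa libraries were above all 2 kPa libraries, and the lowest was low tension replicate 2, where Prg2 was highest. The log2 fold change was 1.39 ± 0.52, or 2.62-fold higher (edgeR adjusted p = 0.15; DESeq2 adjusted p = 0.0405). Ear6 (chromosome 14, 51853699 to 51854643, plus strand) stood at 33.8, 22.2 and 28.4 CPM and at 37.0, 43.7 and 34.7 CPM, again without overlap, by a smaller 0.45 ± 0.18 (edgeR adjusted p = 0.161). Ear1 (chromosome 14, 43818765 to 43875517, minus strand) lay near 1 CPM in both groups, with 30, 36 and 68 counts and then 36, 40 and 46 (-0.0048 ± 0.41, edgeR adjusted p = 0.995), and its sign changed with the scaling. Ear2 is known from macrophages and monocytes as well as eosinophils. The macrophage marker list stood at 8516 to 15782 summed CPM at 2 kPa and 20734 to 23409 at 50 kPa. Lyz2 alone made up most of each sum, at 11571 CPM in low tension replicate 1 and 17268 CPM in high tension replicate 1. Of the list, 11 of 14 tested markers were above 0. By edgeR 0 were called. At an unadjusted edgeR p under 0.05, 8 were higher (background 13.0%), and DESeq2 called 7 higher (background 8.52%) and 0 lower. The part of macrophages in the Ear2 values was not tested.

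The Ear genes are near-copies, and the start of their coding sequences is shown because reads may be shared between them. The first 90 bases are from GENCODE M21 transcripts on GRCm38, with capitals where a base differs from Ear2.
Ear2, chr14:44102887-44102976, plus strand: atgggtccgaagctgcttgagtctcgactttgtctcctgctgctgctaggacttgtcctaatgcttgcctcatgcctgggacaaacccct
Ear10, chr14:43923279-43923368, minus strand: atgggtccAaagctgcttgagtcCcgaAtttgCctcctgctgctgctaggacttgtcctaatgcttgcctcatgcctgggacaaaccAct
Ear1, chr14:43819320-43819409, minus strand: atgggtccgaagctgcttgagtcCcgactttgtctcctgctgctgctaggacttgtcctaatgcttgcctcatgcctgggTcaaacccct
Ear6, chr14:51853998-51854087, plus strand: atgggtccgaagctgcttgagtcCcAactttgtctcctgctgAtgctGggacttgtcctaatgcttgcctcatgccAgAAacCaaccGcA

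In this window Ear10 differs from Ear2 at 5 bases, Ear1 at 2 and Ear6 at 10. Over the whole coding sequence identity to Ear2 was 97.01% for Ear10, 95.1% for Ear1 and 87.6% for Ear6. Of all 50-base stretches of the transcripts, 57.4% of those of Ear1 and 41.5% of those of Ear2 also occur in a transcript of another gene, against 0.954% for Ear6. No source used here says how reads with several matches were counted, so the Ear1 and Ear2 counts are uncertain, and Ear6 is the member of this family least open to the sharing of reads. Ear10, the closest copy of Ear2, had 0, 0 and 1 counts at 2 kPa and 3, 1 and 1 at 50 kPa. Among the other genes of the set, the largest such shares were 5.48% for Mcpt4 and 5.38% for Cma1.

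The receptors of eosinophils and the lipoxygenase gene were lower at 50 kPa without overlap. Il5ra, the specific chain of the interleukin 5 receptor (chromosome 6, 106710357 to 106749037, minus strand), stood at 1.89, 1.61 and 2.40 CPM at 2 kPa and 0.871, 0.209 and 0.492 CPM at 50 kPa (-1.90 ± 0.48, edgeR adjusted p = 0.0794). Ccr3, the eotaxin receptor that eosinophils and basophils share, was below 1 CPM in every library, with 17, 34 and 31 counts and then 8, 13 and 6 (-1.42 ± 0.43, edgeR adjusted p = 0.107). Its groups were apart only by 17 against 13 counts. Alox15, the lipoxygenase of eosinophils and of some macrophages, stood at 8.05, 12.7 and 7.06 CPM and at 5.07, 5.34 and 5.90 CPM. Its difference was the smallest of the 3 at -0.77 ± 0.24 (edgeR adjusted p = 0.114). Prg2, Prg3 and Epx were highest in replicate 2 at 2 kPa and in replicate 3 at 50 kPa, while Il5ra and Ccr3 were highest in replicate 3 at 2 kPa and in replicates 1 and 2 at 50 kPa. The order for these receptors rests on few counts and is uncertain. Il5ra had 73, 67 and 80 counts at 2 kPa and 28, 7 and 17 at 50 kPa. Before scaling, Ccr3 had more counts in replicate 2 than in replicate 3 at 2 kPa.

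Levels were compared between genes per kilobase of annotated exon. At 2 kPa Prg2 was the most abundant of the 31, at 240 ± 151 CPM per kb (SD, n = 3), then Mcpt8 at 108 ± 77.6, Cpa3 at 72.1 ± 26.8, Prss34 at 64.5 ± 59.5 and Ear2 at 55.9 ± 31.2. Within every 2 kPa library Prg2 stood above Mcpt8, at 128, 411 and 181 against 48.2, 196 and 80.1 CPM per kb in replicates 1, 2 and 3. The other neighbours changed order between libraries. At 50 kPa the order began with Ear2 at 146 ± 48.3 CPM per kb, followed by Prg2 at 60.5 ± 31.8, Ear6 at 40.7 ± 4.95, Cpa3 at 15.9 ± 10.7 and Mcpt8 at 12.6 ± 10.6. Of these neighbours, the libraries of Ear6 and Cpa3 did not overlap, and the other pairs did. Within every 50 kPa library, though, Cpa3 stood above Mcpt8, at 9.13, 10.4 and 28.3 against 8.45, 4.73 and 24.7 CPM per kb. Prss34 was rank 4 at 2 kPa and rank 11 at 50 kPa, Fcer1a was rank 17 and then 24, and Kit was rank 14 and then 6. The 4 genes with too few counts to test were the last 4 of 31 in each order.

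The libraries within a group differed by a pattern that most of the genes followed. Low tension replicate 2 was the highest of its group for 13 of the 18 basophil and mast cell genes and 4 of the 9 eosinophil genes tested (background 37.1%). High tension replicate 3 was the highest of its group for 17 and 5 of them (background 42.3%). Both held for 13 and 4 genes (background 16.7%). In low tension replicate 2 Prss34 was 4.40-fold, Fcer1a 3.81-fold and Prg2 2.66-fold above the mean of the other two libraries at 2 kPa. The share of all counts taken by the 31 genes was 0.0788%, 0.185% and 0.113% in replicates 1, 2 and 3 at 2 kPa and 0.0447%, 0.0424% and 0.0573% at 50 kPa. All 50 kPa shares lie below all 2 kPa shares. A few genes weigh heavily in them. Kit, Ear2 and Ear6, which were not lower, had 4002, 3952 and 1190 of 15115 counts in high tension replicate 1. In high tension replicate 3 they had 2477, 2258 and 1199 of 20698. Cd69, which many leukocytes share, had 9326 of 40642 counts in low tension replicate 3. The share is thus no measure of these lineages.

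**Figure D3:**
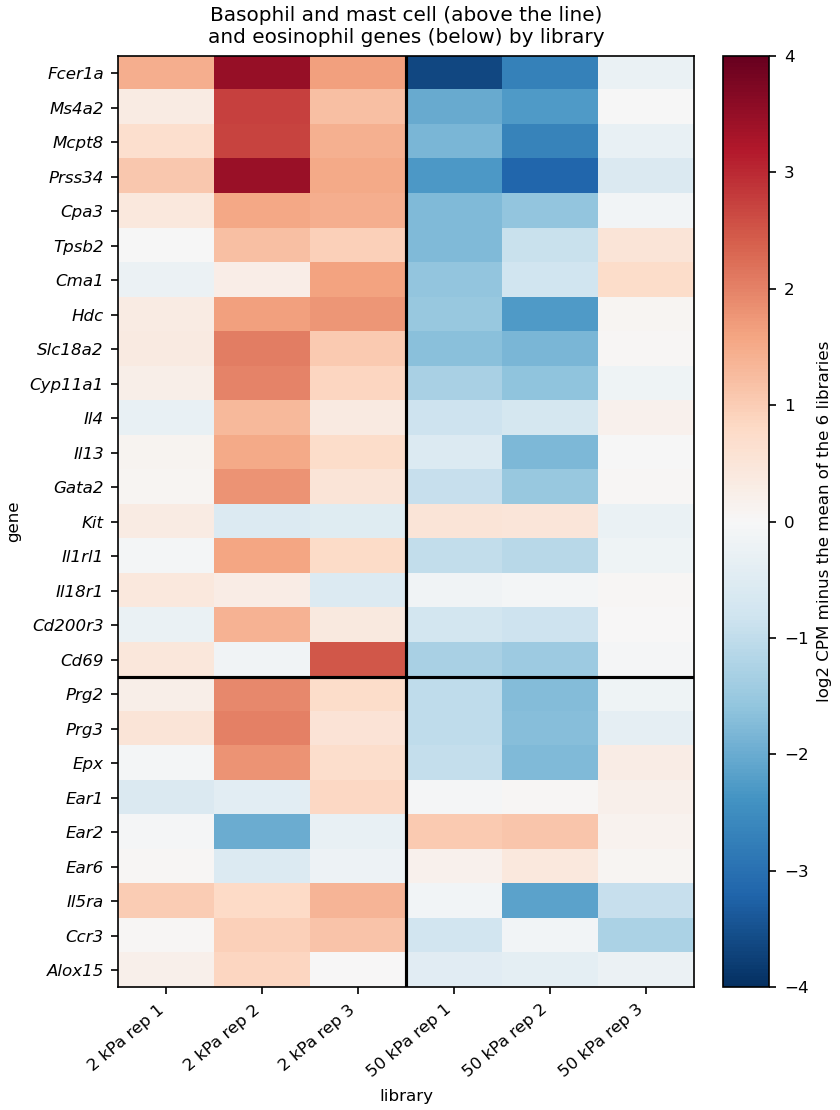
Log2 CPM of the 27 genes tested (rows) in each library (columns) minus the mean of the gene over the 6 libraries; red is above and blue below that mean. Low tension replicate 2 is the darkest red column for Fcer1a, Prss34 and Mcpt8, and Ear2 shows the opposite colours.

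Ratios of counts between genes of one library do not depend on how libraries are scaled. Prg2 over Ear2 was 1.86, 23.0 and 3.16 in replicates 1, 2 and 3 at 2 kPa and 0.364, 0.215 and 1.22 at 50 kPa, so Prg2 had fewer counts than Ear2 in 2 of the 3 libraries at 50 kPa and in 0 of the 3 at 2 kPa. Mcpt8 over Prg2 was 0.448, 0.567 and 0.528 and then 0.189, 0.172 and 0.308, a narrow range in each group and no overlap. Mcpt8 over Cma1, a basophil against a mast cell protease, was 3.99, 11.3 and 1.84 at 2 kPa and 1.76, 0.572 and 1.03 at 50 kPa. Epx over Prg2 ranged from 0.303 to 0.362 at 2 kPa and from 0.365 to 0.521 at 50 kPa. The genes were picked for these ratios after their values were seen, so no test is given.

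**Figure D4:**
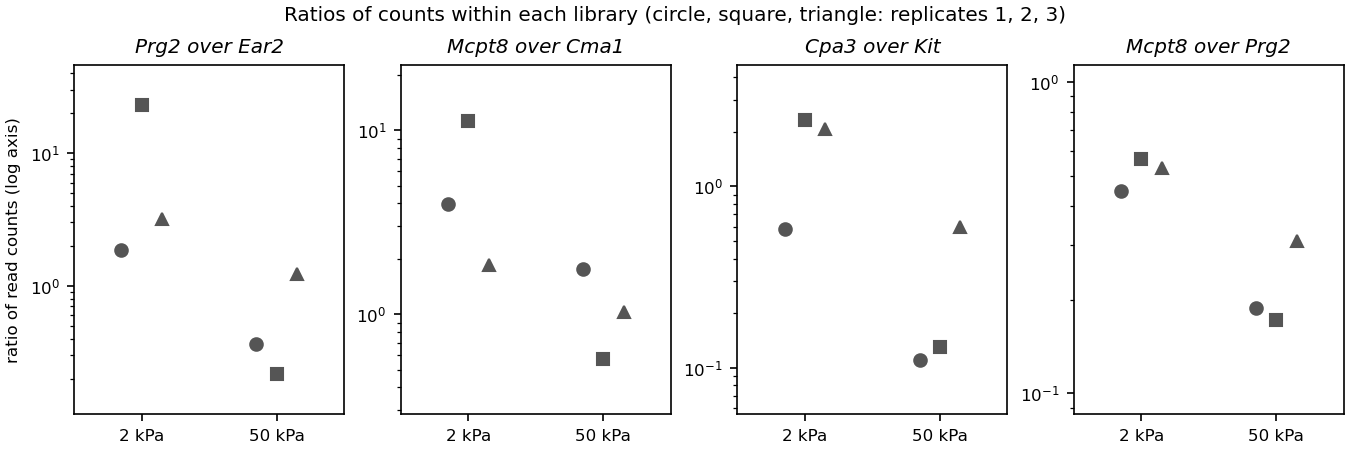
Ratio of read counts between 2 genes (log axis) in each library at 2 kPa and 50 kPa; circles, squares and triangles are replicates 1, 2 and 3. Prg2 over Ear2 runs from 23.0 in low tension replicate 2 to 0.215 in high tension replicate 2, and Mcpt8 over Prg2 keeps a narrow range within each group.

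Genes that work with these members, taken from 5 fixed lists, gave 0 to 2 calls a list by edgeR and more by DESeq2. Of all genes tested, edgeR called 1.98% lower and 1.47% higher, and DESeq2 9.51% and 8.52%. At an unadjusted edgeR p under 0.05 the shares were 14.8% lower and 13.0% higher. These shares stand beside the counts of all 5 lists. None of the edgeR calls in these lists remained with high tension replicates 1 and 2 summed. Of 24 genes of IgE receptor signalling, 0 were called by edgeR, and the median log2 fold change was -0.04. At an unadjusted edgeR p under 0.05, 4 were lower and 2 higher, and DESeq2 called 3 lower and 2 higher. These counts lie near the shares over all genes. Most of the 24 genes, such as the kinase genes Syk (-0.29, edgeR adjusted p = 0.423) and Lyn (-0.026, edgeR adjusted p = 0.924), serve many myeloid cells. Among 14 tested genes of granule storage and mediators DESeq2 called 2 lower and 1 higher. edgeR called 1, Mcpt1, a protease of mucosal mast cells, which rose (edgeR adjusted p = 0.0481). It had 2, 0 and 2 counts at 2 kPa and 41, 43 and 12 at 50 kPa, opposite in direction to Mcpt8 and Prss34 and under the limit of 3 counts in every 2 kPa library, so no fold is given. The mast cell proteoglycan gene Srgn, also made by other leukocytes, stood at 0.26 ± 0.16 (edgeR adjusted p = 0.319).

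Among 24 transcription factors of these lineages DESeq2 called 6 lower and 0 higher, and edgeR called Gata1, which erythroid cells, megakaryocytes, mast cells, basophils and eosinophils share. It fell by 2.72 ± 0.48 on the log2 scale, from 3.60, 7.24 and 3.45 CPM to 0.467, 0.537 and 1.16 CPM (edgeR adjusted p = 0.045), without overlap. This call and the other edgeR calls named here were absent with high tension replicates 1 and 2 summed. Cebpe, a factor of granule formation in neutrophils and eosinophils, stood at -2.22 ± 0.47 (edgeR adjusted p = 0.0576), and Mitf, a factor of mast cells and macrophages, at 0.18 (edgeR adjusted p = 0.668). Among 24 tested growth factors, receptors and surface proteins DESeq2 called 3 lower and 4 higher, and edgeR called Itga2b lower (-2.51 ± 0.44, edgeR adjusted p = 0.0444) and Il33 higher. Il33 encodes the ligand of ST2 and rose by 2.89 ± 0.31 (edgeR adjusted p = 0.0286), from 8, 13 and 12 counts to 59, 92 and 69. Itga2b is a platelet integrin gene that also marks immature mast cells and basophils. Il3, the cytokine that most favours basophils, had 0 counts in all 6 libraries, its receptor gene Il3ra stood at 0.014 (edgeR adjusted p = 0.974), and Csf2rb, the shared chain, at -0.17 (edgeR adjusted p = 0.609). Of 9 tested eosinophil marker genes outside the 31, Ccl24, the eotaxin 2 gene, which macrophages also make, fell (edgeR adjusted p = 0.0394), from 14, 13 and 16 counts to 1, 2 and 3. No fold is given, since its 50 kPa counts are at or under the limit of 3 counts. DESeq2 called 2 of the 9 lower. Siglec5, the symbol used here for Siglec-F, stood at 0.32 (edgeR adjusted p = 0.598), and alveolar-type macrophages are known to carry it too. The median of these 9 was -0.35.

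Markers of other cell types also differed between the libraries. The shares over all genes were 1.98% lower and 1.47% higher by edgeR and 9.51% and 8.52% by DESeq2. At an unadjusted edgeR p under 0.05 they were 14.8% and 13.0%. The edgeR calls below were all absent with high tension replicates 1 and 2 summed. Summed levels of 17 neutrophil markers were 5820 to 9604 CPM at 2 kPa and 4053 to 4333 CPM at 50 kPa. Chil3 made up most of the sum at 50 kPa, at 3391, 3088 and 2272 CPM in replicates 1, 2 and 3. It was the 1 marker of the 17 above 0 (0.69, edgeR adjusted p = 0.102), and 16 were below. The median log2 fold change was -2.33, with 10 of 17 called lower and low tension replicate 2 highest for 14. Promyelocyte markers summed to 150 to 881 CPM and 49.4 to 130 CPM, with 0 of 11 called, 9 with an unadjusted p under 0.05 by edgeR and 9 called lower by DESeq2. Their median was -2.54, and for all 11 the highest libraries were replicate 2 at 2 kPa and replicate 3 at 50 kPa. Megakaryocyte markers summed to 351 to 477 CPM and 210 to 327 CPM, with 4 of 11 called lower, and B cell markers to 90.6 to 142 CPM and 26.1 to 34.4 CPM, with 7 of 9 called lower. Stem and progenitor markers summed to 452 to 1371 CPM and 274 to 1584 CPM, with overlap. Ly6a and Procr made up most of each sum, at 1120 and 410 CPM in high tension replicate 3, and the levels of both overlapped between groups. By gene the median was -1.37, with 10 of 11 tested below 0 and 5 lower without overlap (background 16.9%). By edgeR 0 of 11 were called (5 lower at an unadjusted p under 0.05 by edgeR, 5 lower by DESeq2). Erythroid markers had 4 of 15 tested, all lower and 0 called by edgeR (4 at an unadjusted p under 0.05, 4 by DESeq2), and the globin genes Hbb-bs, Hbb-bt, Hba-a1 and Hba-a2 and Alas2 were at 0 in all libraries. T, NK and ILC2 markers had a median of -0.091 and 0 of 12 called by edgeR. At an unadjusted edgeR p under 0.05, 1 was lower and 2 were higher, and DESeq2 called 1 lower and 1 higher. The part of these other cell types in the values of Gata2, Kit, Cpa3, Hdc, Prg2 and Epx, which progenitors or other granulocytes can express, was not tested.

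The fold changes kept their sign when any 1 library was left out in 25 of the 27 genes, all but Il18r1 and Ear1. The size depended on the libraries used. Leaving out low tension replicate 2 brought the basophil and mast cell median to -1.31 and the eosinophil median to -0.92. Leaving out high tension replicate 3 gave -2.42 and -1.17, and leaving out low tension replicate 3 gave -1.75 and -1.21. Cd69 and Cma1 were nearest to 0 without low tension replicate 3. The plot of fold changes with 1 library left out shows values for Prss34, Fcer1a, Mcpt8, Ms4a2, Prg2 and Epx nearest to 0 without the former and farthest from 0 without the latter.

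**Figure D5:**
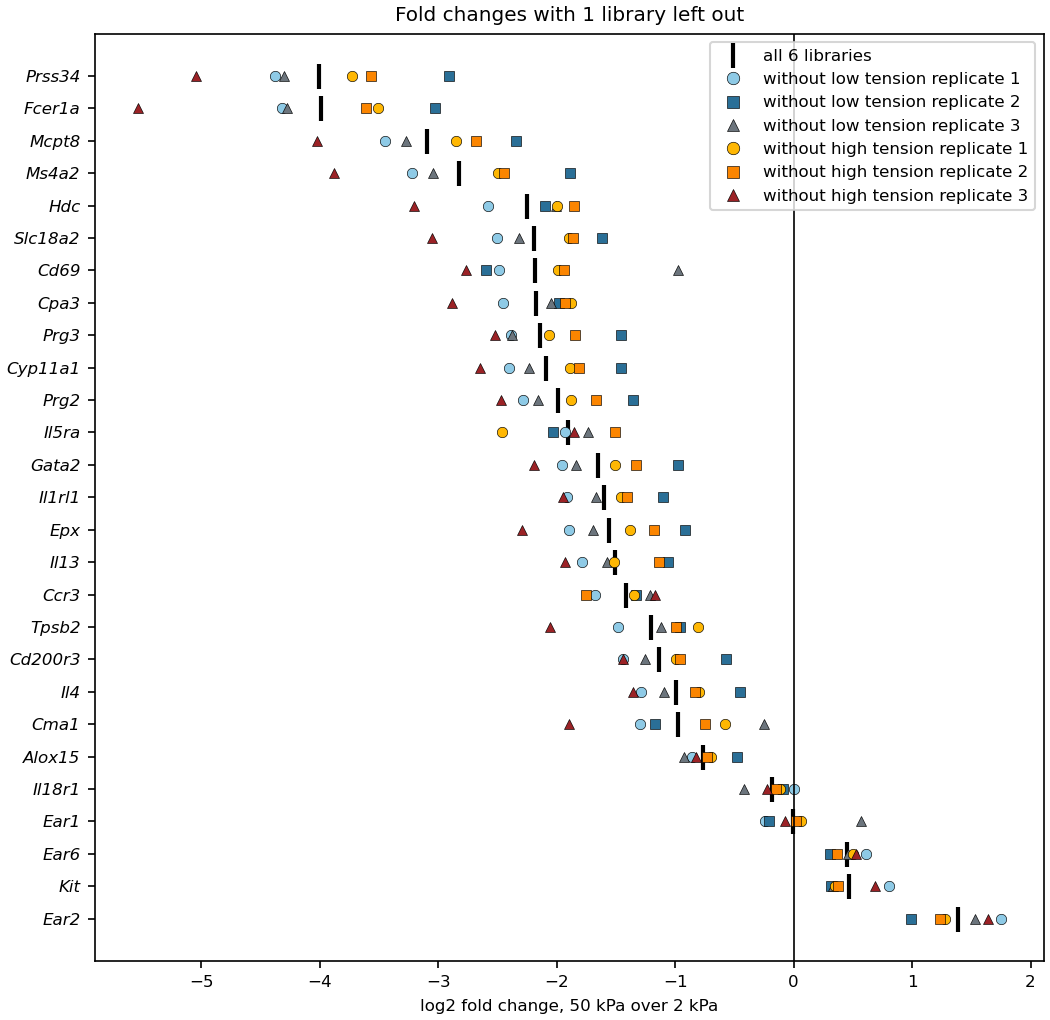
Log2 fold change (50 kPa over 2 kPa, x axis) of each gene tested with all 6 libraries (black bars) and with 1 library left out (coloured markers). For Fcer1a the values run from -5.53 without high tension replicate 3 to -3.03 without low tension replicate 2, and the markers of Ear1 and Il18r1 lie on both sides of 0.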

How the data were processed

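The samples were 6 polyA RNA-seq libraries, 3 at 2 kPa and 3 at 50 kPa, made with a directional NEBNext Ultra II kit per the labels. The authors deposited whole-number read counts per gene symbol. The tools listed, with no role or order, per the submitters' processing notes were HTSeq 0.6.1p2, TopHat2 2.0.11, FastQC 0.11.2 and edgeR (3.8.6 and 3.16.5), and the builds listed were hg19 and mm10. Annotation, strand setting and the handling of reads with several matches are therefore unknown here.

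Counts were fitted in R 4.3.3 with edgeR 4.0.16: filterByExpr defaults (minimum count 10, minimum total 15), TMM factors, glmQLFit and glmQLFTest with stiffness as the term, and Benjamini-Hochberg adjustment over all 13155 genes tested, called under 0.05. Standard errors are the log2 fold change over the square root of F. The steps were tested on simulated data. DESeq2 1.42.0 and limma-voom (limma 3.58.1), other scalings and filters, a robust fit, replicate number as a block, high tension replicates 1 and 2 summed, and each library left out were alternatives. The members and lists were chosen with earlier results of these data known. All members were named, and of other fixed lists the genes called or at most the 4 with the smallest p-values, plus a few named for their role in the pathway after their values were seen. Exon lengths, coordinates and shared 50-base stretches came from GENCODE M21 and promoters from RefSeq GRCm38.p6. All 31 symbols matched GENCODE. Python 3.11.15, numpy 2.4.6 and matplotlib 3.10.9 drew the plots.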

Additional observations from a re-analysis of the deposited data

How the results depend on the processing

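Counts of calls rested on the test and on single libraries. All genes called lower and higher, 260 and 194 in the fit reported, numbered 1251 and 1121 by DESeq2, 160 and 127 with at least 1 CPM in 3 libraries, and 0 and 0 with high tension replicates 1 and 2 summed (2138 at an unadjusted p under 0.05 by edgeR). With total-count scaling 77 were higher. Leaving out each library gave 0 to 256 lower and 0 to 255 higher. Among the members, DESeq2 called 11 basophil and mast cell and 4 eosinophil genes lower, against 0 and 0 by edgeR. Without high tension replicate 3 edgeR called 1 (range 0 to 1 over the libraries left out). Nothing in the labels ties equal replicate numbers to 1 animal or day. Deviations of same-numbered libraries correlated with r = 0.54, -0.11 and 0.49, and 3 of 6 libraries were closest to their own number, so no pairing was assumed. With replicate number as a block, 522 genes were lower, 3 of them basophil and mast cell genes (Cpa3, Cma1 and Cd69). The eosinophil median of -1.42 was -1.16 with the 1 CPM filter, which tests 8 of the 9 genes, and -1.68 to -0.92 with 1 library left out. The sign of Ear1 differed in 8 fits, from -0.24 to 0.57, and that of Il18r1 in 1 (0.0057). In the other cases the cause was not tested. Depth limits Il4, Il13, Il5ra, Ccr3 and Fcer1a at 50 kPa, each under 20 counts in some library, and the 4 genes not tested.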

Other observations

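Low-count relatives of the granule proteases outside the 31 genes were counted in the same libraries. Mcpt2, a protease of mucosal mast cells, had 2, 16 and 3 counts in replicates 1, 2 and 3 at 2 kPa and 1, 0 and 4 at 50 kPa. Prss28, a serine protease gene of the tryptase cluster, had 5, 33 and 11 counts and then 2, 0 and 4. Tpsg1, the transmembrane tryptase, had 27, 109 and 65 counts and then 5, 13 and 42 (log2 fold change -1.57, edgeR adjusted p = 0.241). Each of these genes was highest at 2 kPa in replicate 2, as Mcpt8 and Prss34 were, while Mcpt1 was not. Rnase2a, a ribonuclease gene related to the Ear family, had 2205, 211 and 946 counts at 2 kPa and 3391, 4127 and 926 at 50 kPa (1.497, edgeR adjusted p = 0.314), with its lowest value in low tension replicate 2, as for Ear2. These genes were picked after their values were seen.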
